A study of Komagataella phaffii GS115 with 12 samples.

Results

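YNL190W is 1 of the 2390 rows of an expression table from cultures of Komagataella phaffii GS115, a yeast that grows on methanol and is widely known as Pichia pastoris. The row was chosen by its name for its measured pattern, high only in 1 of 4 groups of cultures, so the levels that show this pattern are given as a description and were not tested. The groups, of 3 separate cultures each, came from a study of strains that make S-adenosyl-L-methionine, and 1 array was hybridised per culture with Cy3-labelled total RNA. G12-CBS at 72 h of methanol carried the recombinant methionine adenosyltransferase gene DS56 and a weak promoter, G12, used to lower expression of CYS4. G12-CBS at 24 h of methanol was the same strain, sampled without L-methionine feeding. GS115/DS56 at 72 h, called DS56 here, carried the DS56 gene alone. GS115/3.5K at 72 h, called the control, had the empty vector pPIC3.5K integrated. The sample titles add LP to the control's strain name and HP to those of DS56 and G12-CBS, at both times, while the phenotype label calls DS56 and G12-CBS at 72 h high-producing and G12-CBS at 24 h and the control low-producing. The 3 groups at 72 h had received L-methionine at 24 h of induction, so in G12-CBS the time on methanol and the feeding cannot be told apart. Whether each strain was a single clone is not stated in the labels.

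Hydrophilins are small, strongly hydrophilic proteins that accumulate in many organisms under water loss and help cells survive drying. In Saccharomyces cerevisiae the gene named YNL190W encodes a hydrophilin of the cell wall that takes part in surviving desiccation and rehydration. This role is known from S. cerevisiae and is background: the table gives names alone, and all 2390 of them are S. cerevisiae open reading frame names, while 0 occur among the 5040 genes of the K. phaffii RefSeq table. Which K. phaffii transcript binds the probes of this row, and how well, is unknown, so the row is not shown to measure a K. phaffii hydrophilin gene. The values are on the log2 scale, where 1 unit is a doubling of the deposited signal. No sequence is shown, since none was given for this row.

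In G12-CBS at 72 h, YNL190W had 10.63, 10.45 and 10.48 on its 3 arrays. In G12-CBS at 24 h it had 7.09, 7.45 and 7.28. In DS56 it had 7.30, 6.95 and 6.96, and in the control 7.60, 7.38 and 7.32. The G12-CBS 72 h arrays stood together far above the other 9, with no overlap. The lowest G12-CBS 72 h array lay 2.85 above the highest other array, control replicate 1, which is 7.20-fold on the deposited values. The 3 G12-CBS 72 h arrays covered a range of 0.18 and the other 9 a range of 0.64, so the gap was wider than the spread on either side.

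**Figure D1:**
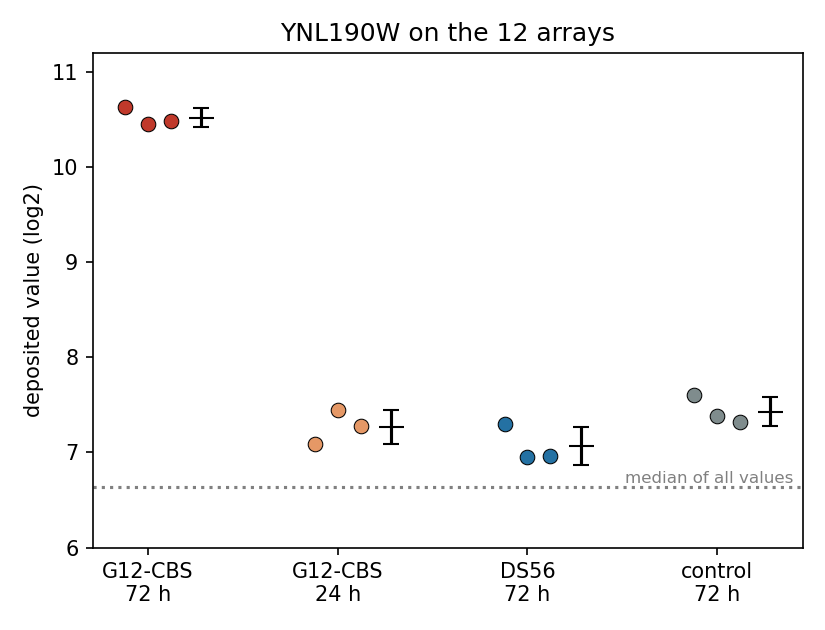
Deposited log2 value of YNL190W on each of the 12 arrays, with 1 point per culture, beside it the group mean with its SD (n = 3), and the median of all values as a dotted line. The G12-CBS 72 h points lie between 10.45 and 10.63, and the other 9 between 6.95 and 7.60.

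As group means, YNL190W stood at 10.52 ± 0.10 in G12-CBS at 72 h, 7.27 ± 0.18 in G12-CBS at 24 h, 7.07 ± 0.20 in DS56 and 7.43 ± 0.15 in the control (SD, n = 3 each). The control was thus next below G12-CBS at 72 h, and DS56 was lowest. G12-CBS at 72 h was 3.45 above DS56, 3.25 above its own 24 h cultures and 3.09 above the control on the log2 scale. In each of these comparisons the arrays of the 2 groups did not overlap, as they did not in 38.2%, 41.1% and 19.1% of all rows. These differences are those by which the row was chosen, and nothing is read from the shares.

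The order of the other 3 groups was not part of the choice and was tested in limma's fit over all rows. The choice did need all 3 to be low, which limits how far apart they can lie. DS56 was 0.36 ± 0.14 (SE) below the control, and its highest array, 7.30, lay just under the lowest control array, 7.32. This difference missed the threshold of 0.05, with limma's adjusted p = 0.0733 (unadjusted p = 0.0157) and a 95% interval of -0.64 to -0.08 before adjustment. In this comparison 18.1% of all rows were called, and in 33.8% of rows the 2 groups did not overlap. Both sides of the threshold were seen under other settings: the adjusted p was 0.0430 with each array centred on its median, 0.0458 without DS56 replicate 1, and up to 0.239 without DS56 replicate 2.

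G12-CBS at 24 h lay between these groups and overlapped both. It was 0.20 ± 0.14 (SE) above DS56, with limma's adjusted p = 0.999 and an interval of -0.08 to 0.49, in a comparison where 0.962% of all rows were called. It was 0.16 ± 0.14 (SE) below the control, with limma's adjusted p = 0.444 and an interval of -0.44 to 0.13, where 19.7% of rows were called. Single arrays moved both differences by more than 1.5 times. The difference from DS56 was 0.32 without DS56 replicate 1 and 0.11 without G12-CBS 24 h replicate 2. The difference from the control was -0.07 without G12-CBS 24 h replicate 1, -0.08 without control replicate 1 and -0.25 without G12-CBS 24 h replicate 2. None of these passed the threshold. No difference between neighbours in the order of these 3 groups was therefore shown, and the intervals still allow differences of up to 0.49 in size. Since the row was chosen as low in all 3, nothing is read from their closeness. The 3 means covered 0.36, against a median of 0.26 over all rows, and 69.5% of rows had a narrower range.

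On the arrays of G12-CBS at 72 h, YNL190W ranked 59, 63 and 62 from the brightest of the 2390 rows. On those of G12-CBS at 24 h it ranked 399, 238 and 289. The ranks were 283, 534 and 528 in DS56, and 207, 258 and 277 in the control. Thus 2.43% to 2.59% of rows were brighter than YNL190W in G12-CBS at 72 h, and 8.62% to 22.3% on the other 9 arrays. A rank places the row's signal on its array, and since probes differ in brightness it is no measure of transcript number. The row's best rank outside G12-CBS at 72 h, 207, was on the array with its highest other value, control replicate 1.

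**Figure D2:**
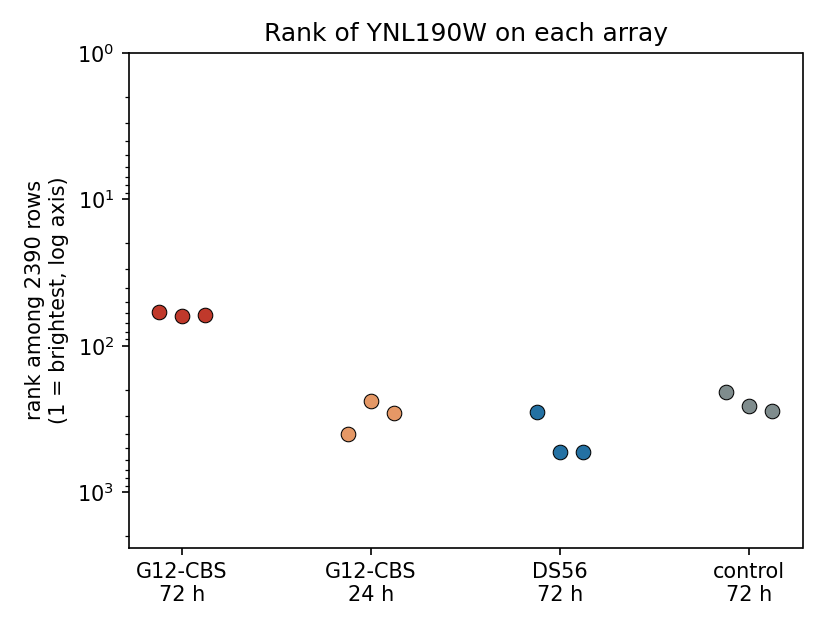
Rank of YNL190W among the 2390 rows on each array, on a log axis with the brightest row at the top, 1 point per culture. The G12-CBS 72 h points lie at 59 to 63, and the other 9 run from 207 to 534, with DS56 replicates 2 and 3 lowest.

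YNL190W lay above the median of its array on all 12 arrays, by 3.82 to 4.01 in G12-CBS at 72 h and by 0.30 to 0.98 on the other 9. The array medians ran from 6.59 to 6.66. No detection flags were used here, so the level in the 3 lower groups is not shown to be above background, and a fold against them is a fold of measured values. The highest value, 10.63, was 5.13 below the top of the table at 15.76, so the row was not near the upper end of the scale.

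Cultures of a group differed in this row about as much as in the middle row of the table. Its within-group SD, pooled over the 4 groups, was 0.161, against a median of 0.171 over all rows. The group SDs stood differently against the other rows: 20.3% of rows had a smaller SD in G12-CBS at 72 h, 90.9% in G12-CBS at 24 h, 87.5% in DS56 and 36.3% in the control. Rows varied least in G12-CBS at 24 h and DS56, with median SDs of 0.095 and 0.112, against 0.177 in G12-CBS at 72 h and 0.185 in the control. The deposited values fall on fixed levels shared by the arrays. At the level of G12-CBS at 72 h the next levels were 0.031 to 0.064 away, and replicates 2 and 3 sat on adjacent levels, 0.038 apart. On the other arrays the steps were at most 0.006.

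Among all rows, the 3 G12-CBS 72 h arrays lay above the other 9 in 102, or 4.27%. YNL190W had the widest such gap of the table, 2.85, and YGR049W and YKL138C followed with 2.58 and 2.52. The next were YLR037C with 1.41, YHR010W with 1.22 and YDL215C with 1.20. A difference of more than 3 from each of the 3 other groups was seen in 1 row, YNL190W itself, and a difference of more than 2 in 4 rows. The files give these rows no gene product.

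**Figure D3:**
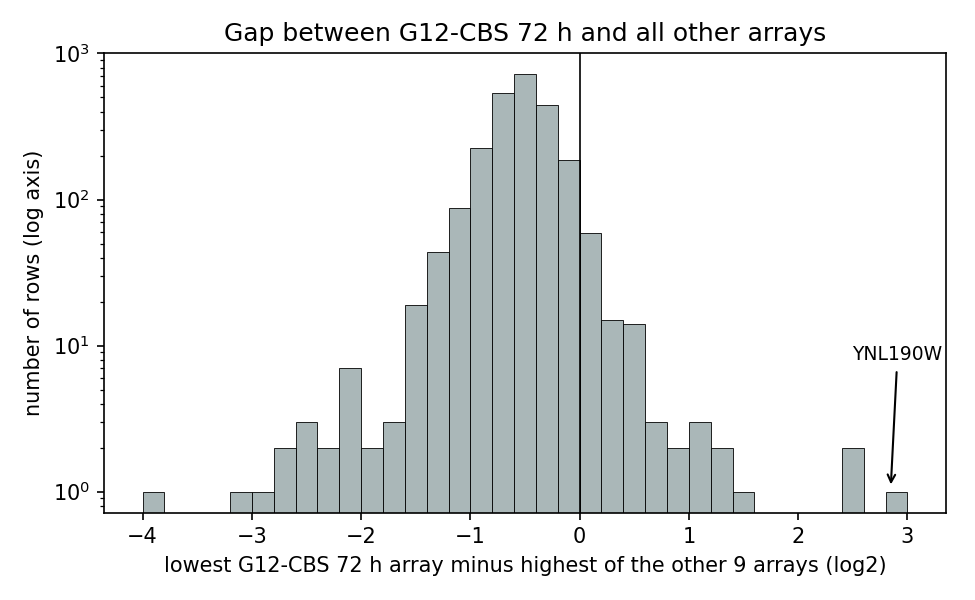
Number of rows, on a log axis, by the difference between the lowest G12-CBS 72 h array and the highest of the other 9 arrays on the log2 scale, in bins of 0.2. The 102 rows right of 0 have all 3 G12-CBS 72 h arrays above the rest, and YNL190W lies farthest to the right at 2.85.

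The 5 rows most like YNL190W, by Pearson's correlation of the log2 values over the 12 arrays, were YLR037C (r = 0.995), YGR049W (0.988), YKL138C (0.987), YLR284C (0.968) and YMR180C (0.967). The median correlation of the other 2389 rows was -0.11, and 31 rows were above 0.9. Such a correlation rests mainly on the step to G12-CBS at 72 h, and all points share the arrays and their normalization. Over the 9 arrays of the other groups alone the correlations of these 5 rows were 0.78, -0.05, 0.39, 0.48 and -0.13, in the same order. With the group means taken out, over all 12 arrays, they were 0.26, 0, -0.32, 0.41 and 0.18. The likeness was thus between groups, and YLR037C was the one of the 5 with a high correlation in the other groups too. By Spearman's correlation only 1 of these 5 rows was among the first 5.

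YLR037C, the most alike, had a smaller step from a brighter level. It had 11.51, 11.58 and 11.44 in G12-CBS at 72 h, 9.92, 9.97 and 9.87 in G12-CBS at 24 h, 9.80, 9.71 and 9.77 in DS56, and from 9.97 to 10.03 in the control. As in YNL190W, the control had the highest mean of the 3 lower groups and DS56 the lowest. The step above the mean of these groups was 3.26, or 9.60-fold, in YNL190W and 1.62, or 3.07-fold, in YLR037C.

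YGR049W and YKL138C had steps nearly as large as that of YNL190W, 2.96 (7.76-fold) and 3.13 (8.76-fold). YGR049W had 9.89, 9.59 and 9.80 in G12-CBS at 72 h, and from 6.62 to 7.01 on the other 9 arrays. YKL138C had 9.87, 10.11 and 10.17 in G12-CBS at 72 h, and from 6.66 to 7.35 on the others. In each of the other groups both had a lower mean than YNL190W. These means ran from 6.76 to 6.84 in YGR049W and from 6.77 to 7.17 in YKL138C, against 7.07 to 7.43 in YNL190W. YGR049W lay near the array medians there, and YKL138C lay farther above them in the control, at 7.05, 7.10 and 7.35. YLR284C and YMR180C rose by less over the mean of the 3 other groups, 1.58 and 1.69, and the 3 G12-CBS 72 h arrays of YMR180C ran from 7.86 to 8.52.

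**Figure D4:**
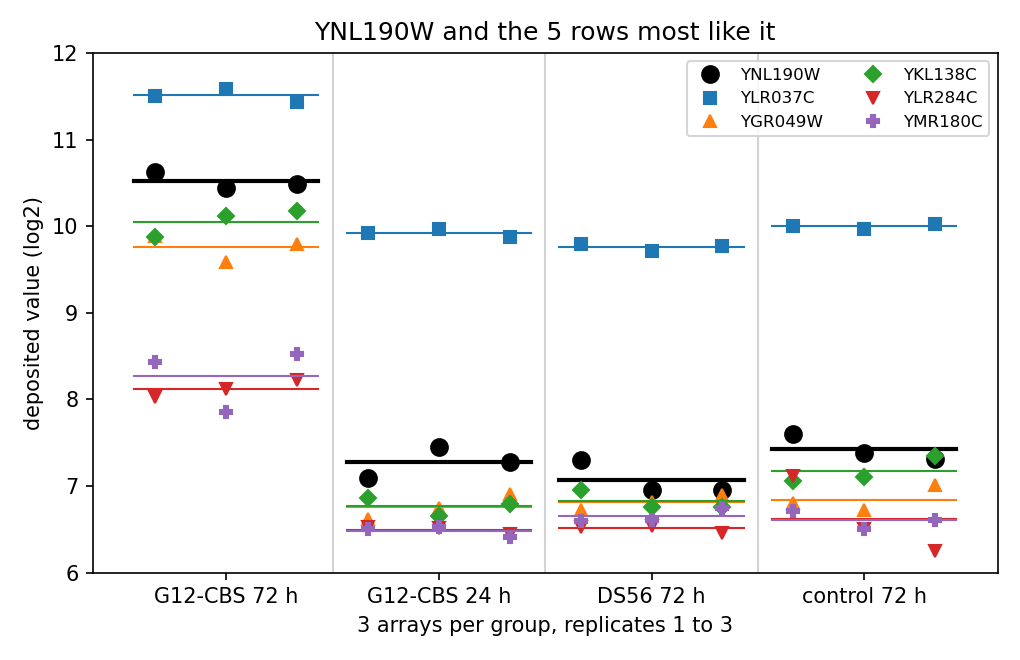
Deposited log2 values of YNL190W and the 5 rows most like it on the 12 arrays, with 1 symbol per row and a line at each group mean. All 6 rows stand highest on the 3 G12-CBS 72 h arrays, YLR037C from between 9.71 and 10.03 in the other groups and the other 5 from between 6.24 and 7.60.

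YHR010W and YDL215C, named for their gap, were less even in G12-CBS at 72 h than YNL190W. The SD there was 0.10 in YNL190W and 0.81 in YHR010W, which had 10.60, 9.05 and 10.21, and from 6.96 to 7.83 on the other arrays. YDL215C had from 8.87 to 9.51 there, and from 6.99 to 7.67 on the others. Of the rows next to YNL190W by mean level over the 12 arrays, YLR337C had another pattern and YDR353W a similar one with a smaller step. The mean was 8.07 in YNL190W and 8.08 in YLR337C, which stood at 7.89 ± 0.63 in G12-CBS at 72 h and was highest in G12-CBS at 24 h, at 8.65 ± 0.02 (SD, n = 3 each). YDR353W, with 8.07 and r = 0.899, stood at 8.72 ± 0.04 in G12-CBS at 72 h and 8.20 ± 0.04 in the control. It had 7.74 ± 0.10 in G12-CBS at 24 h and 7.64 ± 0.04 in DS56. Its lowest G12-CBS 72 h array lay 0.44 above the highest other array. In 4.27% of all rows the G12-CBS 72 h arrays lay above all others.

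The rows least like YNL190W were YLR262C-A (r = -0.974), YDR002W (-0.940) and YIR022W (-0.938), all lowest in G12-CBS at 72 h. YLR262C-A had 8.98, 9.37 and 9.29 there, and from 10.11 to 10.40 on the other 9 arrays. Its step, -1.06 against the mean of the 3 other groups, was smaller in size than the rise of YNL190W, and those of YDR002W and YIR022W were -0.63 and -0.58.

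Rows that carry the S. cerevisiae names of other hydrophilin and desiccation genes did not show the pattern of YNL190W. Of 6 such names besides YNL190W, 5 were in the table: YMR175W, YPL223C, YJL144W, YDL213C and YFL014W. All 5 were dim, with means of 6.43 to 6.57 over the 12 arrays, just under the array medians, and were not shown to be above background. None was called by limma in any of the 6 comparisons between groups. YPL223C was the only one with an unadjusted p under 0.05, in G12-CBS at 72 h against DS56. There 35.9% of all rows had such a p, and 8.33% of all rows were called higher and 14.1% lower. Over the 6 comparisons the share of all rows called ran from 0.962% to 22.8%, and the share with an unadjusted p under 0.05 from 5.77% to 36.3%, so with 5 rows a count of 0 is near what the table gives in several of them. YPL223C had 6.74, 6.81 and 6.37 in G12-CBS at 72 h, and 6.16, 6.25 and 6.40 in DS56, so these groups overlapped (adjusted p = 0.0645). The median difference of the 5 rows was 0.11 against DS56, 0.08 against G12-CBS at 24 h and 0.11 against the control, where the medians of all rows were -0.04, -0.05 and -0.02.

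Rows named for S. cerevisiae proteins attached to the cell wall moved in both directions. Of 18 names, 10 were in the table. In G12-CBS at 72 h against DS56, 1 was called higher and 1 lower, where 8.33% of all rows were called higher and 14.1% lower. Against the control it was again 1 and 1, where 5.02% of all rows were called higher and 4.18% lower. Counts of 1 of 10 are near these shares. Against G12-CBS at 24 h, 1 was higher and 3 were lower, where 8.24% of all rows were called higher and 14.6% lower. The 3 lower rows were YKL096W-A, YDR077W and YEL040W. Without G12-CBS 24 h replicate 1 or 2, or without G12-CBS 72 h replicate 3, only YKL096W-A of these kept its call (adjusted p up to 0.0708 for YDR077W and 0.0931 for YEL040W), and YDR077W also lost it without G12-CBS 72 h replicate 1. The medians of the 10 rows were -0.01, 0.04 and -0.10 in these 3 comparisons.

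The row called higher each time was YDR055W. It had 7.49, 7.42 and 8.04 in G12-CBS at 72 h, 6.83, 6.85 and 6.75 in G12-CBS at 24 h, 6.98, 6.84 and 6.83 in DS56, and 6.78, 6.83 and 7.21 in the control. The G12-CBS 72 h arrays lay above all others, as in 4.27% of all rows. Its differences were 0.77 ± 0.15 (SE) from DS56 with limma's adjusted p = 0.00117, and 0.84 ± 0.15 from G12-CBS at 24 h with 0.000478. From the control it was 0.71 ± 0.15 with limma's adjusted p = 0.00576, but 0.155 with the spread taken from those 6 arrays alone.

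YKL096W-A, in the same list, was called lower each time. It had 9.59, 9.40 and 9.67 in G12-CBS at 72 h, 10.74, 10.68 and 10.48 in G12-CBS at 24 h, 10.11, 10.03 and 10.11 in DS56, and 10.34, 9.87 and 9.89 in the control. The G12-CBS 72 h arrays were the lowest 3 of the 12, and how many rows of the table share this was not counted. In pairs with DS56, G12-CBS at 24 h and the control, non-overlap in either direction was seen in 38.2%, 41.1% and 19.1% of all rows. The difference was -1.08 ± 0.14 (SE) from G12-CBS at 24 h with limma's adjusted p = 7.53e-06, and -0.53 ± 0.14 from DS56 with 0.00896. From the control it was -0.48 ± 0.14 with limma's adjusted p = 0.0334, and 0.227 with the 6 arrays alone.

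Rows named for S. cerevisiae genes of trehalose synthesis and the general stress response, 8 of 12 names, were as mixed. YFL014W is in this list and in that of the hydrophilin and desiccation genes above, so it is counted in both. In G12-CBS at 72 h, 0 were called higher and 1 lower against DS56, 1 higher and 0 lower against the control, and 1 and 1 against G12-CBS at 24 h. At an unadjusted p under 0.05, in either direction, the counts were 1, 3 and 3 of 8, where 35.9%, 22.4% and 36.3% of all rows had such a p. The shares of all rows called were the 8.33% higher and 14.1% lower against DS56, 5.02% and 4.18% against the control, and 8.24% and 14.6% against G12-CBS at 24 h given above, and counts of 0 or 1 of 8 are near them. YOL052C-A was the row called higher than in the control, with 7.64, 7.60 and 7.64 in G12-CBS at 72 h and 7.31, 6.76 and 7.11 in the control. Its difference of 0.57 ± 0.13 (SE) had limma's adjusted p = 0.00953, but 0.155 with the 6 arrays alone and 0.0512 without control replicate 2. In DS56 the row had 7.69, 7.69 and 7.67, and in G12-CBS at 24 h 7.78, 7.93 and 7.76. Both groups were also called higher than the control, by 0.62 and 0.76 (limma's adjusted p = 0.00301 and 0.000392). In these comparisons 18.1% and 19.7% of all rows were called in either direction. YDL022W was the row called higher than at 24 h, at 6.69 ± 0.20 in G12-CBS at 72 h and 6.33 ± 0.14 in G12-CBS at 24 h (SD, n = 3 each, limma's adjusted p = 0.0491). It lost this call under 4 of 13 alternatives (limma's adjusted p up to 0.192), among them the 6 arrays alone (0.0733). Its mean was 6.74 ± 0.10 in the control, above G12-CBS at 72 h, and 6.52 ± 0.07 in DS56 (SD, n = 3 each). G12-CBS at 24 h was also called lower than the control, with a difference of -0.41 (limma's adjusted p = 0.0317). That call was lost under 4 of 13 alternatives too. The brightest row of the list, YGR088W, went the other way from YNL190W. It had 10.55, 10.48 and 10.63 in G12-CBS at 72 h, 11.90, 11.85 and 12.23 in G12-CBS at 24 h, 11.34, 11.58 and 11.08 in DS56, and 10.74, 10.96 and 11.01 in the control. In G12-CBS at 72 h it was lower, with a difference of -1.44 ± 0.14 (SE) from 24 h and limma's adjusted p = 3.11e-07, and of -0.78 ± 0.14 from DS56 with 0.000505. The difference from the control, -0.35, had an adjusted p of 0.144.

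**Figure D5:**
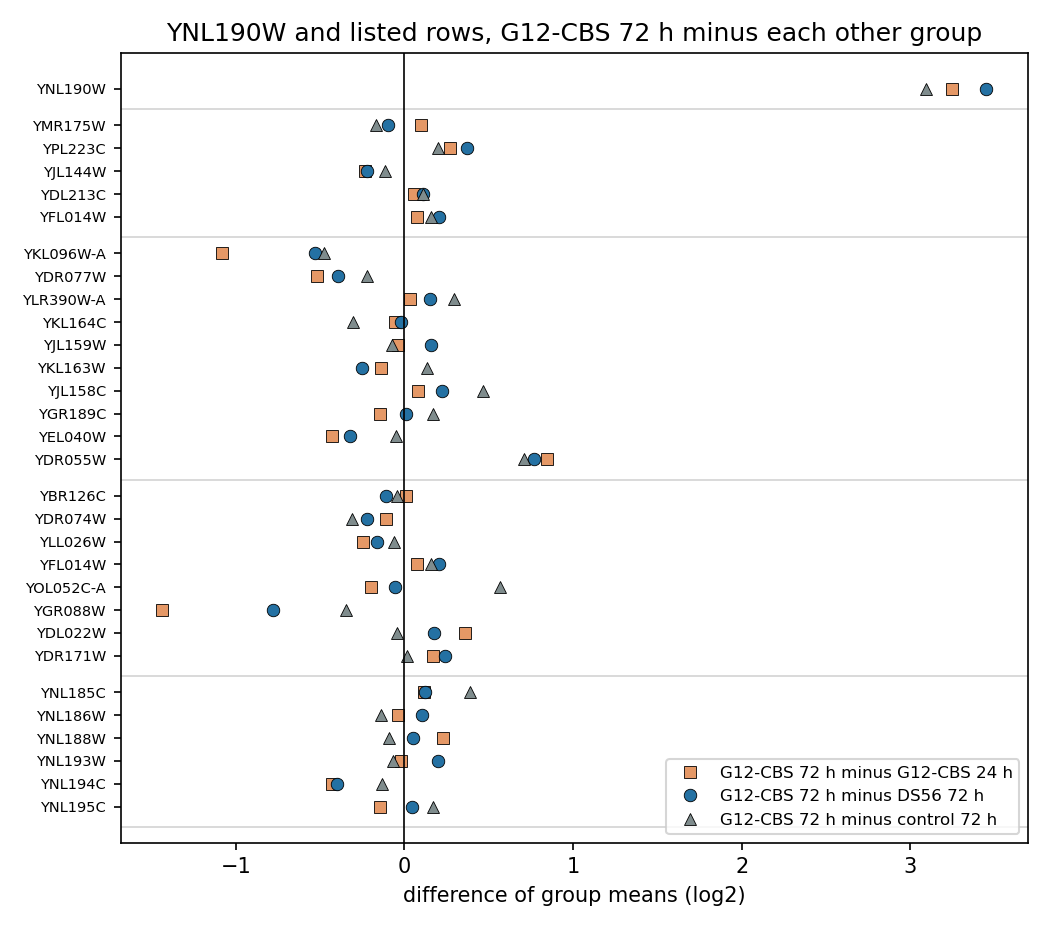
Difference of group means on the log2 scale, G12-CBS at 72 h minus each of the other 3 groups, for YNL190W at the top and, below the lines, the rows named for other hydrophilin and desiccation genes, cell wall proteins, trehalose and stress genes, and the neighbours by S. cerevisiae name. YNL190W lies at 3.09 to 3.45, and the listed rows between -1.44 and 0.84.

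Systematic names follow the order of genes on a S. cerevisiae chromosome, so rows with neighbouring names were looked up, although this order need not hold in K. phaffii. Of 10 names from YNL185C to YNL195C, 6 were in the table, and the names directly beside it, YNL189W and YNL191W, were not. None of the 6 was called higher in G12-CBS at 72 h against any group by limma, and 1 of the 6 had an unadjusted p under 0.05, in either direction, in each of the 3 comparisons. Of all rows, 8.33% were called higher against DS56, 8.24% against G12-CBS at 24 h and 5.02% against the control, and 35.9%, 36.3% and 22.4% had an unadjusted p under 0.05, so 0 of 6 called higher is near the share of the whole table. The differences of the 6 rows ran from -0.40 to 0.20 against DS56, from -0.43 to 0.23 against G12-CBS at 24 h and from -0.14 to 0.39 against the control. YNL194C was called lower against DS56 and against G12-CBS at 24 h, at 6.29 ± 0.06 in G12-CBS at 72 h, 6.72 ± 0.10 in G12-CBS at 24 h and 6.69 ± 0.13 in DS56 (SD, n = 3 each). Of all rows, 14.1% and 14.6% were called lower in these comparisons, and 1 of 6 is near these shares.

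The split of calls over all rows depends on the scale of the arrays. Of the calls for G12-CBS at 72 h against DS56, 37.2% were higher as deposited and 47.6% after centring on array medians. Against G12-CBS at 24 h these shares were 36.1% and 46.5%. For DS56 against the control they were 66.5% and 53.5%, and for G12-CBS at 24 h against the control 65.3% and 51.7%.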

How the data were processed

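The authors deposited log2 values, 1 for each row on each array, made with RMA per the submitters' processing notes. Version, background step, row removal and probe design are not stated there. The design text speaks of 5777 genes with 8 probes each, and the 2390 deposited rows were used unchanged. Names were looked up in the K. phaffii RefSeq table (assembly ASM2700v1) and in the S. cerevisiae SGD table in the R package GenomicFeatures 1.54.1. The row, the gene lists and the tests were chosen with earlier results of these data known. The lists were compiled from S. cerevisiae names, whose roles no file gives.

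All 2390 rows went into 1 limma fit (version 3.58.1, R 4.3.3, lmFit and eBayes), with 1 mean per group over the 12 arrays and no replicate block. Tests were two-sided, with Benjamini-Hochberg adjustment over all rows of a comparison and a threshold of 0.05. The fit was tested on simulated data. Named rows were the 5 with the highest and the 3 with the lowest Pearson correlation with YNL190W, the 5 with the widest gap, the rows next to it by mean level, and, from the lists, the largest called differences. YPL223C, YOL052C-A and YDL022W were named after their values were seen. Same-numbered arrays were not taken as pairs: their deviations from group means correlated at -0.12 to 0.18, above 0.1 in 2 of 18 pairs. Alternatives were a replicate block, the 6 arrays compared, quantile normalization, centring on medians, array weights, leaving the dimmest 25% of rows out, robust moderation with a variance trend, Spearman's correlation and leaving out each array. The tests of listed rows under these were added after the data were seen. Scanner files and scan dates were not used here, so array batches could not be examined. Precision is limited by the number of arrays.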

Additional observations from a re-analysis of the deposited data

How the results depend on the processing

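The rise of YNL190W in G12-CBS at 72 h kept its direction under quantile normalization, centring on medians and leaving out each array, at 3.39 to 3.56 against DS56, 3.03 to 3.17 against the control and 3.16 to 3.34 against G12-CBS at 24 h when 1 array was left out. The row was chosen for it, so this says little. DS56 minus control was -0.41 after centring (adjusted p = 0.0430) and -0.36 with the replicate block (adjusted p = 0.0813). It ran from -0.47, without DS56 replicate 1 (adjusted p = 0.0458), to -0.28 when 1 array was left out. The cause was not tested. G12-CBS at 24 h minus DS56 and minus the control passed under none of 13 alternatives each, with limma's adjusted p from 0.423 to 1 and from 0.298 to 0.821. The replicate block gave 0.20 and -0.16 for these and changed no call of YNL190W. Median ranks ran from 60.5 to 62.5 in G12-CBS at 72 h, 263.5 to 344 in G12-CBS at 24 h, 405.5 to 531 in DS56 and 232.5 to 267.5 in the control with 1 array left out. Of the 5 most alike rows, 1 was kept by Spearman's correlation and 3 to 5 without 1 array (3 without control replicate 2, or without G12-CBS 72 h replicate 1 or 3).

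Counts of called rows over the table moved by more than 1.5 times in a few settings. With only the 6 arrays compared and with array weights, G12-CBS at 72 h against the control had 51 and 97 in place of 220, and G12-CBS at 24 h against DS56 had 66 and 76 in place of 23. With 1 array left out, DS56 against the control had 239 to 390 in place of 433 (253, 239 and 246 without DS56 replicates 1, 2 and 3), and G12-CBS at 24 h against DS56 had 15 to 20 (15 without G12-CBS 24 h replicate 2). G12-CBS at 24 h against the control had 270 to 463 in place of 472 (275, 270 and 275 without its 24 h replicates 1, 2 and 3), and G12-CBS at 72 h against DS56 had 355 to 514 in place of 535 (355 without DS56 replicate 2). The causes were not tested. Of the listed rows, YNL194C against DS56 lost its call without DS56 replicate 1 or 3 (adjusted p up to 0.0833), and against G12-CBS at 24 h without 24 h replicate 3 (0.0688). YKL096W-A against the control lost it under 5 of 13 alternatives (up to 0.227), and the named differences of YDR055W, YKL096W-A and YGR088W from DS56 and from G12-CBS at 24 h kept theirs under all 13. Quantile normalization left these differences of YKL096W-A and YGR088W unchanged, so for them it was no separate check.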
